A study of Mus musculus with 72 samples.

Results

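Mammalian cells write and remove cytosine methylation with a small set of enzymes, and 9 of their genes are described here: Dnmt1 and Uhrf1, which maintain methylation at replication, the de novo methyltransferases Dnmt3a and Dnmt3b with their catalytically inactive partner Dnmt3l, the oxidising enzymes Tet1, Tet2 and Tet3, and the glycosylase Tdg. They were chosen by function, out of 45321 genes with a transcript in the deposited counts. All 9 were among the 18273 genes that passed a filter on low counts and were tested. Each gene was represented by its transcript with the highest total count over the 72 libraries.

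The study asked how the transcriptome of mouse embryonic stem cells changes without Nup133, a scaffold subunit of the nuclear pore, on the way from pluripotency to neuroectoderm. Controls were HM1 (Nup133+/+, labelled 40 chromosomes, XY), with 2 samples per day labelled as biological replicates, and line 1A4, derived from a blastocyst (Nup133+/+, Sox1gfp/+, labelled 40 chromosomes, XY). Knockouts were lines 14 and 19, CRISPR/Cas9-edited derivatives of HM1 (Nup133-/-, XY, with 40 chromosomes given for line 14 and as likely for line 19), and the blastocyst-derived line 319 (Nup133merm/merm, Sox1gfp/+, labelled 42 chromosomes, XX, with gains of chromosomes 8 and 12). Day 0 cells came from serum and leukemia inhibitory factor on mitomycin-treated mouse fibroblast feeders, which were removed by differential plating. Day 2 cells had been moved to N2B27 medium, and day 3 cells had in addition received 1 µM all-trans retinoic acid for 24 h, so time and retinoic acid cannot be told apart in the second step. Each genotype and day thus had 3 samples, and each edited or derived line stands for its genotype with 1 sample per day. The labels do not say whether the samples of a line came from separate cultures, so p-values measure the spread between these samples.

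DNA methylation in mammals sits mostly on CpG dinucleotides. Dnmt3a and Dnmt3b place it on unmethylated DNA, Dnmt3l stimulates them, Uhrf1 recognises hemimethylated DNA behind the replication fork and recruits Dnmt1 to copy the mark, and Tet enzymes oxidise 5-methylcytosine to forms that Tdg can excise. Naive embryonic stem cells are known for high Tet1, Tet2 and Dnmt3l, and the passage to the formative, epiblast-like state is known for a burst of de novo methyltransferase expression.

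The targeted gene was checked first. Nup133 stood at 179.5 to 323.4 CPM (read counts scaled to a common library size, with TMM factors) in the 9 control samples and at 14.3 to 37.1 CPM in the 9 knockout samples. Total gene counts ranged from 16.5 M to 54.4 M per sample. The pluripotency genes Pou5f1, Sox2 and Sall4 summed to 1830 to 1870 CPM in the controls and 2220 to 2330 CPM in the knockouts at day 0, and none was at 0 in all samples. Some libraries departed from their labels or from the rest. In line 319, genes of chromosome 12 had a median of 1.36 to 1.4-fold of line 1A4, whereas those of chromosome 8, labelled as gained, had a median of 0.669 to 0.75-fold. In lines 14 and 19, labelled XY, the Y-linked gene Ddx3y stood at 0.151 to 2.85 CPM, against 25.3 to 31.2 CPM in HM1. None of the 9 genes lies on chromosome 8, X or Y, and Dnmt3a lies on chromosome 12. The day 2 sample of line 19 was the shallowest and stood apart by transcript length, as described below, so the values that turn or lose a call without it are given both ways.

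The sequences upstream of 3 transcription starts are shown because Dnmt3a and Dnmt3b rose and fell together over the 3 days and the long and short forms of Dnmt3a begin at separate starts. They are the 250 bases before the start on GRCm38.p6, from RefSeq, read on the plus strand, with each CpG in capitals. The long Dnmt3a form starts after chr12:3806730-3806979, the short form starts inside the gene after chr12:3891494-3891743, and Dnmt3b starts after chr2:153649199-153649448.
Dnmt3a long form: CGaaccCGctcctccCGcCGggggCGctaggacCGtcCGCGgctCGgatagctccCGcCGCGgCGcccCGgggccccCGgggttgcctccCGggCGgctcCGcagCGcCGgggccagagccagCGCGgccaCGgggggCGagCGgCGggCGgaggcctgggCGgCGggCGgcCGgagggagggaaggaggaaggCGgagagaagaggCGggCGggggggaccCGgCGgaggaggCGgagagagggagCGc
Dnmt3a short form: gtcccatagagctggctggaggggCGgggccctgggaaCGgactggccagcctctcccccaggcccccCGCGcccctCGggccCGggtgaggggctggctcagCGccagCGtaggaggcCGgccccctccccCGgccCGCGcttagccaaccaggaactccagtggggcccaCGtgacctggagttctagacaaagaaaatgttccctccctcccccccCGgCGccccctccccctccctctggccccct
Dnmt3b: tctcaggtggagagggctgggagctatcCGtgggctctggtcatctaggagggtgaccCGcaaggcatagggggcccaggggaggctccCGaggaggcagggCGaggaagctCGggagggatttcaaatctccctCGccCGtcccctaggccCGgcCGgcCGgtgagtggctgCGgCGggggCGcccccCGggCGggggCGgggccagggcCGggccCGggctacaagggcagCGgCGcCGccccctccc
The long-form window holds 38 CpG, more than 98.1% of the 32817 RefSeq promoter windows of the same length. The short-form window holds 15 and the Dnmt3b window 21, more than 72.7% and 83.7% of them. These are letter counts, and methylation itself was not measured.

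Neither gene of the maintenance pair passed the test in any step. Dnmt1, the maintenance methyltransferase (chromosome 9, 20907209 to 20952979, minus strand, 39 exons), stood at 443, 469 and 392 CPM in HM1 replicate 1, HM1 replicate 2 and line 1A4 at day 0. At day 2 it was 427, 425 and 395 CPM, and at day 3 407, 380 and 375 CPM. The control groups overlapped at neighbouring days, and the knockout samples lay between 372 and 471 CPM except for line 19 at day 2, at 211 CPM. By edgeR's quasi-likelihood test the control change was -0.06 ± 0.20 on the log2 scale (SE, adjusted p = 0.836) from day 0 to day 2 and -0.10 ± 0.20 (adjusted p = 0.765) from day 2 to day 3. In the knockouts it was -0.34 ± 0.20 (adjusted p = 0.206) and 0.23 ± 0.20 (adjusted p = 0.400), and without line 19 at day 2 it was -0.03 (adjusted p = 0.804) and -0.07 (adjusted p = 0.593).

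Uhrf1, the hemimethyl-CpG reader that brings Dnmt1 to DNA (chromosome 17, 56303321 to 56323486, plus strand, 17 exons), had a lower control mean at each later day on the TMM scale. Its control means were 408 ± 26.8 CPM (SD, n = 3) at day 0, 343 ± 7.59 at day 2 and 316 ± 15.3 at day 3. These groups did not overlap (391 to 438, 334 to 348 and 298 to 328 CPM), but neither step passed edgeR's test, with -0.25 ± 0.13 (edgeR adjusted p = 0.146) and -0.12 ± 0.13 (adjusted p = 0.555). Without TMM scaling all control changes shift by 0.18 in the first step and 0.14 in the second on the log2 scale. The control means of Uhrf1 were then 372, 355 and 359 CPM and those of Dnmt1 396, 430 and 441 CPM, so the order of days 2 and 3 turned for Uhrf1 and the order of all 3 days for Dnmt1. Knockout means of Uhrf1 with TMM scaling were 430 ± 29.8, 361 ± 34.8 and 326 ± 45.7 CPM (n = 3 each). A processed copy, Gm5648, matches 44.3% of the Uhrf1 transcript at 98.3% identity but held only 111 counts in all, against 251592 for Uhrf1.

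**Figure D1:**
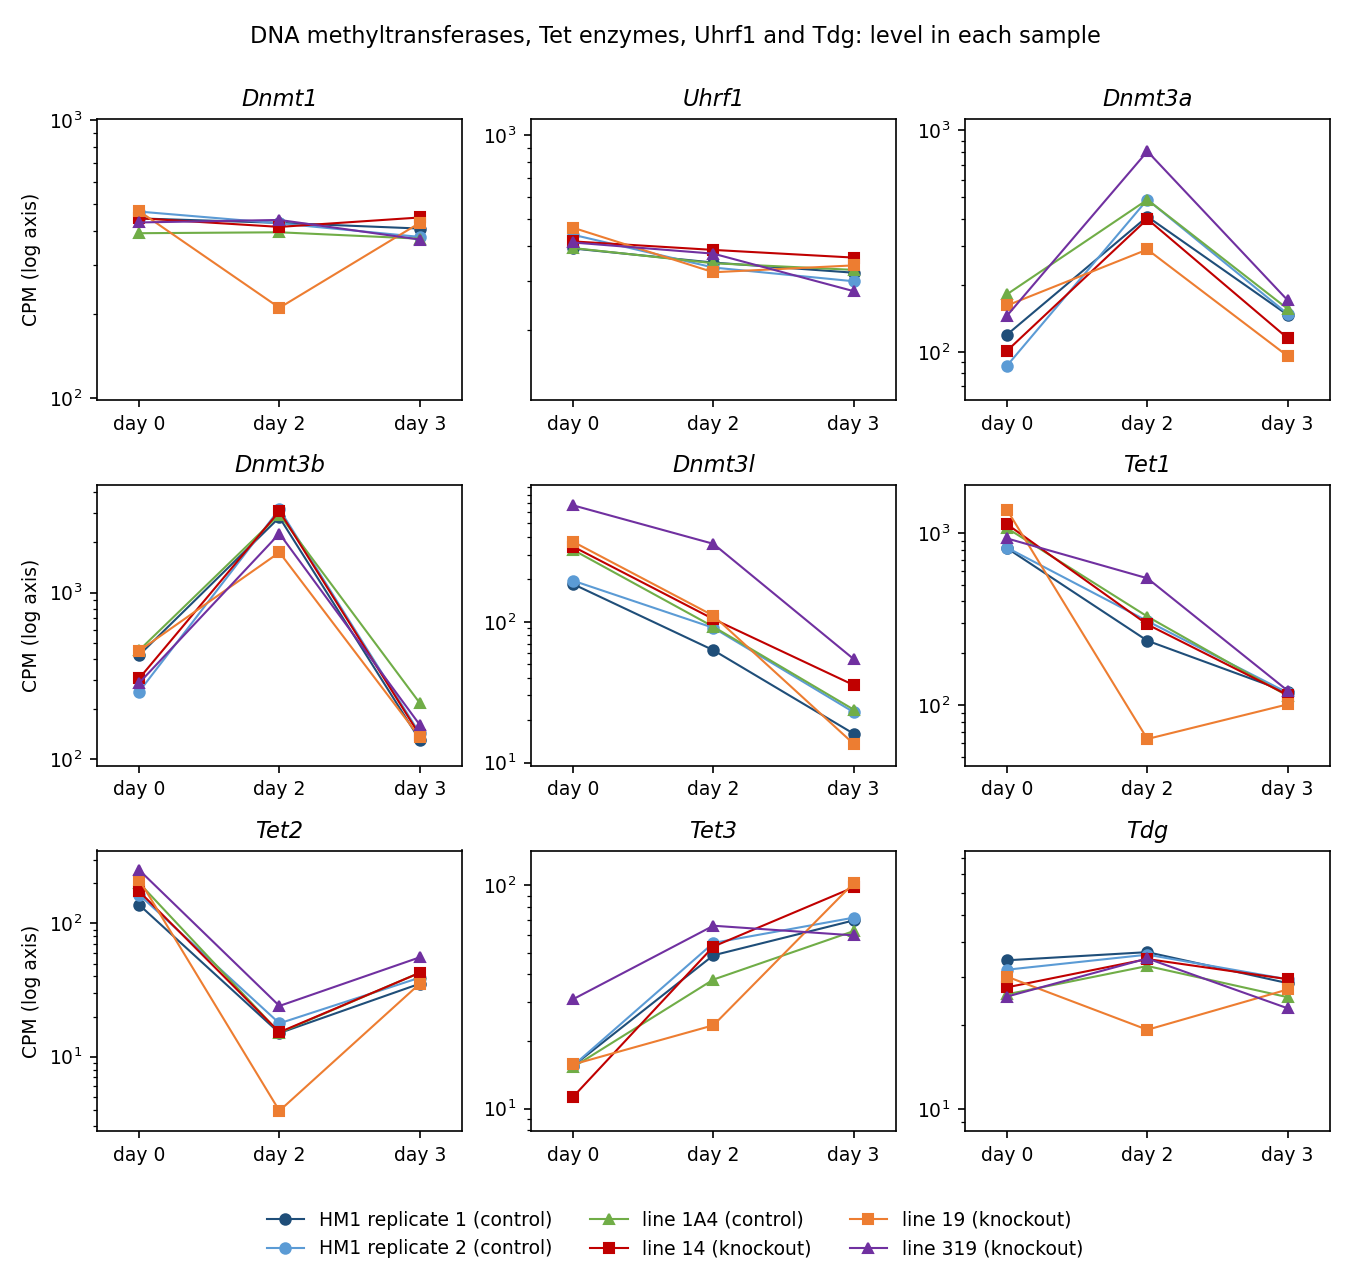
CPM of the 9 genes in each of the 18 samples (log axis, scaled per gene and spanning at least 10-fold) against day; each line joins the samples of 1 cell line or HM1 replicate, circles being HM1, squares lines 14 and 19, and triangles the blastocyst-derived lines. Dnmt3a and Dnmt3b peak at day 2, Dnmt3l and Tet1 are lower at day 3 than at day 0 in every line, Tet2 dips at day 2, and line 19 falls below all other samples at day 2 for 8 of the 9 genes.

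The de novo enzymes peaked at day 2 in both genotypes. Dnmt3b, the main de novo methyltransferase of the early epiblast (chromosome 2, 153649454 to 153687726, plus strand, 24 exons), stood at 422, 255 and 451 CPM in the 3 control samples at day 0. At day 2 the same lines had 2820, 3161 and 2935 CPM, and at day 3 131, 143 and 218 CPM. No control sample of day 2 overlapped another day, and day 3 lay below day 0 throughout. The rise was 7.97-fold (log2 2.99 ± 0.27, edgeR adjusted p = 2.16e-06) and the fall 18.3-fold (log2 -4.20 ± 0.29, adjusted p = 1.05e-07). In lines 14, 19 and 319 Dnmt3b went from 306, 447 and 287 CPM through 3074, 1741 and 2255 to 140, 136 and 161. Their rise was 6.77-fold (adjusted p = 3e-06) and their fall 16.3-fold (adjusted p = 1.34e-07).

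Dnmt3a, the de novo methyltransferase that persists in somatic cells (chromosome 12, 3807030 to 3914443, plus strand, 23 exons), followed the same course with a smaller amplitude. Controls had 120, 86.7 and 182 CPM at day 0, 408, 487 and 487 at day 2, and 147, 148 and 156 at day 3. Day 2 stood clear of the other days, while day 3 lay within the range of day 0. The control changes were 3.71-fold up (log2 1.89 ± 0.26, edgeR adjusted p = 6.15e-05) and then 3.05-fold down (log2 -1.61 ± 0.26, adjusted p = 0.000407). In lines 14, 19 and 319 the values were 101.2, 162 and 146 CPM at day 0, 398, 290 and 804 at day 2, and 115, 95.8 and 171 at day 3. The knockout steps were 3.42-fold up (adjusted p = 9.45e-05) and 3.78-fold down (adjusted p = 7.29e-05). Dnmt3a lies on the chromosome labelled as gained in line 319: its ratio to line 1A4 was 0.801, 1.65 and 1.09 at days 0, 2 and 3, beside chromosome medians of 1.36, 1.39 and 1.4 over 488 genes. What part copy number had in the day 2 value was not tested.

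Dnmt3a makes a long and a short protein from the starts shown above, and reads were counted for every transcript they overlapped, so the forms were compared by exons. Exons found only upstream of the internal start had 3.6 ± 0.464 CPM per kb in controls at day 0 (SD, n = 3), 9.12 ± 1.16 at day 2 and 3.46 ± 0.174 at day 3. Exons shared by both forms had 41.9 ± 17.0, 150 ± 19.1 and 42.9 ± 6.23 CPM per kb. Both sets were highest at day 2, and the upstream exons came to 9.73 ± 4.28%, 6.20 ± 1.55% and 8.15 ± 1.00% of the shared ones. In the knockout lines the percentages were 5.96 ± 1.95, 3.76 ± 0.951 and 10.8 ± 2.59, with ranges that overlapped those of the controls at day 0, lay below them at day 2 (2.83 to 4.73 against 4.80 to 7.87) and above them at day 3 (9.31 to 13.8 against 7 to 8.81). This percentage sets a 5' against a more 3' stretch of the gene, and the coverage of a 5' relative to a 3' fragment of Tet1 was taken as a measure of evenness. That ratio was 0.85 to 0.888 in the controls and 0.689 to 0.801 in the knockouts at day 0, where the Dnmt3a percentages overlapped. It was 0.767 to 0.839 in the controls and 0.498 to 0.75 in the knockouts at day 2, and 0.785 to 0.863 against 0.735 to 0.787 at day 3, where the Dnmt3a percentages were higher in the knockouts. Its part in the Dnmt3a percentages was not tested, and neither were the percentages themselves. They rest on few reads: the upstream exons held from 24 counts (line 19, day 2) to 372 (HM1 replicate 1, day 2) per sample. Per kb, Dnmt3b made up 86.8 ± 2.02% of the summed Dnmt3a and Dnmt3b level in controls at day 0, 93.5 ± 0.411% at day 2 and 70.3 ± 4.82% at day 3. These shares take Dnmt3a per kb of its long transcript of 9685 bases, at 13.4, 47.6 and 15.5 CPM per kb. That is below the shared-exon levels given above, so the shares depend on the length used. At day 3 Dnmt3b stood at 38.0 CPM per kb, beside 42.9 for the shared Dnmt3a exons.

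Dnmt3l, which lacks catalytic activity and stimulates Dnmt3a and Dnmt3b, fell while its partners rose. On chromosome 10 (78049842 to 78063622, plus strand, 13 exons), it stood at 185, 196 and 324 CPM in the controls at day 0, 62.9, 90.6 and 92.2 at day 2, and 16.04, 22.81 and 23.79 at day 3. The control groups did not overlap between days. The falls were 2.74-fold (log2 -1.45 ± 0.33, edgeR adjusted p = 0.00296) and 3.94-fold (log2 -1.98 ± 0.34, adjusted p = 0.000666). The first of these lost its call without HM1 replicate 1 (adjusted p = 0.0523). In the knockout lines Dnmt3l fell 2.63-fold (adjusted p = 0.00392) and 5.19-fold (adjusted p = 0.000113), the first without a call when the background term was dropped (adjusted p = 0.0530). The summed per-kb level of Dnmt3a and Dnmt3b was 0.738 ± 0.224 times that of Dnmt3l in controls at day 0 and 15.4 ± 2.76 times at day 2. Here too Dnmt3a was taken per kb of its long transcript.

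Of the 9 genes, 6 passed the test from day 0 to day 2 in the controls, 3 higher and 3 lower, where 35.2% of all genes tested did. In the knockout lines the same 6 passed in the same directions, where 35.9% did. From day 2 to day 3, 5 passed in the controls (background 21.4%) and the same 5 in the knockouts (background 33.6%), with 1 higher and 4 lower in each genotype. The median log2 change of the 9 genes was -0.06 and -0.25 in the first step and -0.34 and -0.18 in the second (controls and knockouts), beside medians of all genes between 0.00 and 0.06.

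**Figure D2:**
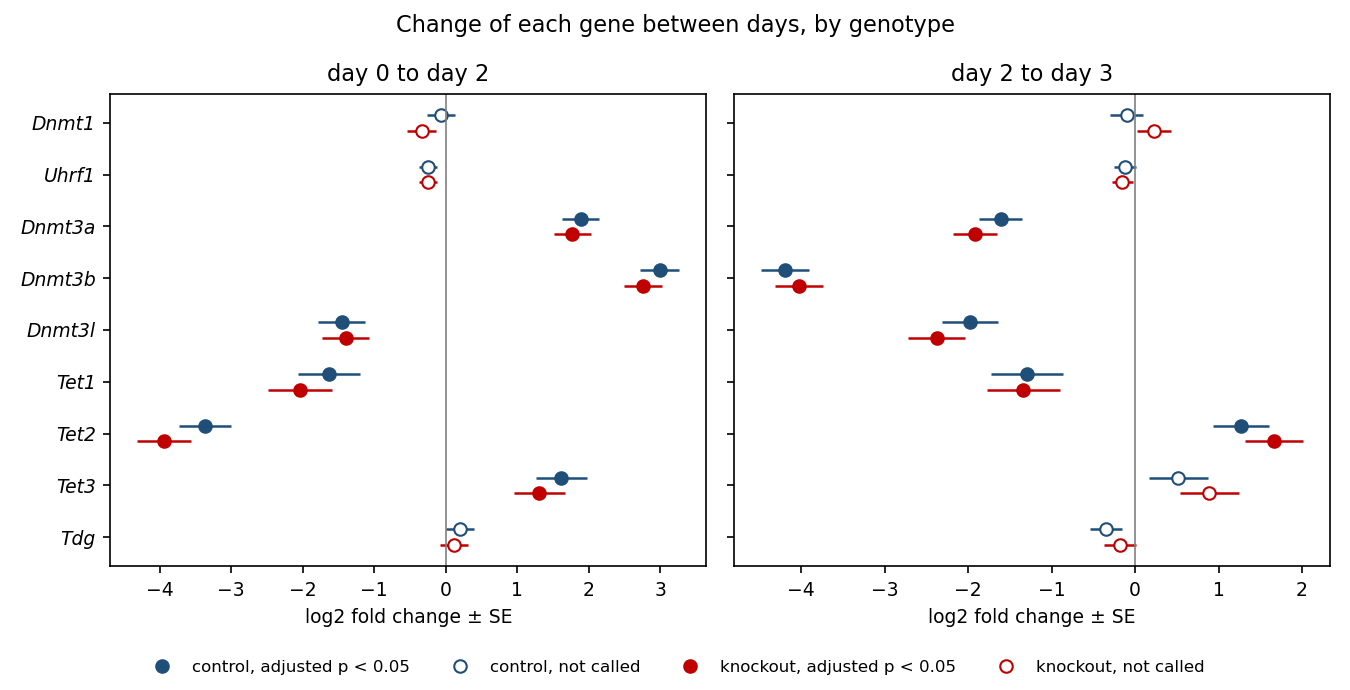
Log2 fold change ± SE of each gene from day 0 to day 2 (left) and from day 2 to day 3 (right), from the fit over all 18 samples; filled points passed an adjusted p of 0.05, and blue is control and red knockout. In both genotypes Dnmt3b moves by 2.76 to 2.99 up and then by 4.02 to 4.20 down, Tet2 reverses its direction between the steps, and Dnmt1, Uhrf1 and Tdg stay near 0.

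The 3 Tet genes took different courses. Tet1, the most abundant dioxygenase of the family in embryonic stem cells (chromosome 10, 62804577 to 62899118, minus strand, 13 exons), fell in both steps. Controls had 815, 821 and 1065 CPM at day 0, 237, 308 and 327 at day 2, and 119.1, 118.0 and 113.2 at day 3. The control groups were apart at every day, and the falls were 3.08-fold (log2 -1.62 ± 0.43, edgeR adjusted p = 0.00871) and 2.46-fold (log2 -1.30 ± 0.43, adjusted p = 0.0417). In lines 14, 19 and 319 Tet1 went from 1122, 1359 and 929 CPM through 294, 63.6 and 545 to 114.6, 101.1 and 121.4, falling 4.09-fold (adjusted p = 0.00245) and 2.52-fold (adjusted p = 0.0276). Without line 19 the first knockout fall was 2.48-fold (adjusted p = 0.000582), and without line 319 it was 6.88-fold (adjusted p = 0.000695) and the second 1.66-fold (adjusted p = 0.212). With each line or HM1 replicate as a fixed term the second fall lost its call in both genotypes (edgeR adjusted p = 0.0643 in controls and 0.0685 in knockouts). As a block in limma-voom they left the control call in place and removed that of the knockouts (adjusted p = 0.105). Over 16 alternatives the second fall was not called in 7 in the controls and in 9 in the knockouts. Those of the controls included leaving out any 1 control sample (edgeR adjusted p = 0.168 to 0.254). The first control fall lost its call without any 1 of the 3 control samples (adjusted p = 0.0599 to 0.0946). With only line 19 at day 2 left out, all of these falls were called. The control falls were then 3.05 and 2.48-fold (edgeR adjusted p = 1.1e-05 and 0.000117) and the knockout falls 2.80 and 3.62-fold (adjusted p = 0.00011 and 1.59e-05).

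Tet2, which has no DNA-binding CXXC domain of its own, fell more than any other of the 9 genes from day 0 to day 2 and then partly returned. It lies on chromosome 3 (133463679 to 133544390, minus strand, 11 exons). Controls had 138, 165 and 202 CPM at day 0, 15.03, 17.79 and 15.11 at day 2, and 35.3, 39.2 and 42.7 at day 3. The 3 days did not overlap. The fall was 10.3-fold (log2 -3.36 ± 0.36, edgeR adjusted p = 9.31e-06) and the return 2.41-fold (log2 1.27 ± 0.34, adjusted p = 0.0139), the return without a call when any 1 control sample was left out (adjusted p = 0.0993 to 0.127). Knockout lines 14, 19 and 319 had 175, 214 and 252 CPM at day 0, 15.3, 3.92 and 24.0 at day 2, and 42.6, 35.3 and 55.7 at day 3. Their fall was 15.3-fold (adjusted p = 2.63e-06) and their return 3.17-fold (adjusted p = 0.00208). Without line 19 at day 2 the knockout fall was 11.3-fold (edgeR adjusted p = 5.37e-08) and the knockout return 2.36-fold (adjusted p = 0.000106). The control steps in that fit were 10.2-fold down (adjusted p = 1.65e-08) and 2.41-fold up (adjusted p = 2.33e-05).

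Tet3, the dioxygenase of oocytes and of differentiating neural cells, rose from a low start. On chromosome 6 (83362373 to 83441675, minus strand, 11 exons), it stood at 15.5, 15.6 and 15.3 CPM in the controls at day 0, 48.6, 55.2 and 37.8 at day 2, and 69.6, 71.6 and 62.4 at day 3. The rise to day 2 was 3.07-fold (log2 1.62 ± 0.36, edgeR adjusted p = 0.00275), and the further 0.52 ± 0.35 to day 3 did not pass (adjusted p = 0.325). In lines 14, 19 and 319 the values were 11.3, 15.8 and 30.9 CPM, then 53.2, 23.6 and 65.9, then 97.97, 102.3 and 59.67. The knockout rise to day 2 was 2.48-fold (adjusted p = 0.00992). It lost its call without line 14 (adjusted p = 0.136), and the control rise did so narrowly without HM1 replicate 2 (adjusted p = 0.0502). The knockout step to day 3 was 0.89 ± 0.36 (adjusted p = 0.0639), and 1.37 without line 319 (adjusted p = 0.0032), the one knockout line in which Tet3 was lower at day 3 than at day 2. Leaving out line 19 at day 2 instead, it was 0.545 (edgeR adjusted p = 0.229), and without line 19 at any day 0.401 (adjusted p = 0.432).

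The make-up of the Tet family differed between days, given here as shares without a test. Per kb of transcript, Tet1 held 76.1 ± 1.39% of the summed Tet level in controls at day 0, 76.7 ± 4.47% at day 2 and 43.7 ± 0.930% at day 3 (SD, n = 3 each). Tet3 went from 1.75 ± 0.271% through 16.7 ± 3.78% to 33.4 ± 1.81%, and Tet2 from 22.2 ± 1.47% through 6.66 ± 0.690% to 22.88 ± 2.402%. In the knockout lines Tet1 held 75.6 ± 6.56%, 73.4 ± 9.39% and 38.0 ± 3.87%, and Tet3 1.75 ± 1.07%, 20.6 ± 9.20% and 38.4 ± 9.85%. The summed Tet level in controls was 82.4 ± 13.2, 26.3 ± 3.24 and 18.6 ± 0.407 CPM per kb. At day 2 in controls, Tet3 was already above Tet2 in every sample (3.47 to 5.06 against 1.64 to 1.94 CPM per kb).

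**Figure D3:**
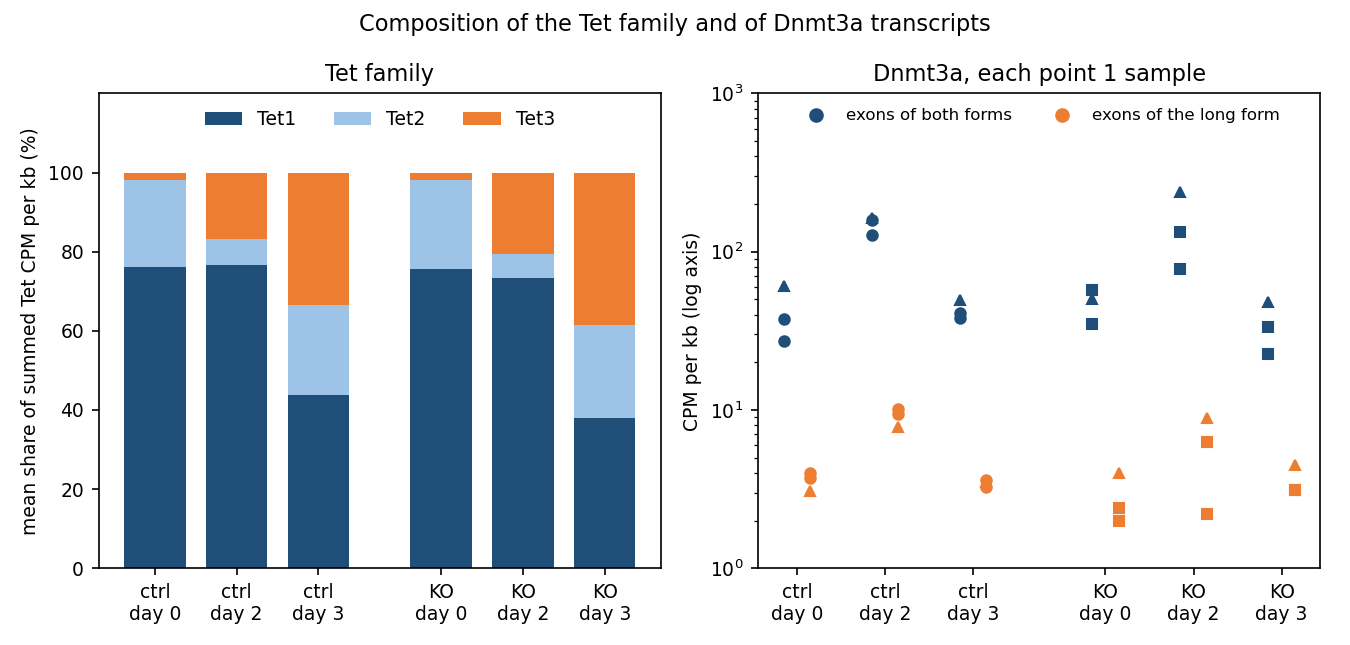
Left, mean share of Tet1, Tet2 and Tet3 in the summed Tet level (CPM per kb) for the 6 groups of genotype and day, n = 3 each; right, level of Dnmt3a exons upstream of the internal start (orange) and of exons shared by both forms (blue) in each sample, in CPM per kb on a log axis, with circles for HM1, squares for lines 14 and 19 and triangles for lines 1A4 and 319. In controls Tet3 grows from 1.75% to 33.4% of the family and Tet1 shrinks from 76.1% to 43.7%, and shared Dnmt3a exons exceed upstream ones in every sample.

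Tdg, the glycosylase that removes oxidised methylcytosine, passed the test in no step over all samples. On chromosome 10 (82629859 to 82650799, plus strand, 10 exons), its control means were 30.7 ± 4.32, 35.1 ± 2.11 and 27.7 ± 2.12 CPM at days 0, 2 and 3 (SD, n = 3 each), and the days overlapped between 0 and 2 and between 0 and 3. The steps in both genotypes had small changes of -0.34 to 0.20 on the log2 scale (edgeR adjusted p = 0.220 to 0.661). Without line 19 at day 2, Tdg passed with a rise of 0.39 in the knockouts (adjusted p = 0.0101) and falls of 0.35 in the controls (adjusted p = 0.0114) and 0.44 in the knockouts (adjusted p = 0.00583). Tdg values are uncertain: Gm9855 matches 34.1% of its transcript at 99.2% identity and held 13774 counts against 20666 for Tdg, and 1 of its 10 exons overlaps Glt8d2 on the opposite strand.

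Ordered by level per kb of transcript, Dnmt3l led in controls at day 0 with 140 ± 46.1 CPM per kb, followed by Uhrf1 (114 ± 7.47), Dnmt3b (87.0 ± 24.5), Dnmt1 (81.0 ± 7.29) and Tet1 (62.6 ± 9.93). The ranges of Dnmt3l and Uhrf1 overlapped, as did those of Dnmt3b and Dnmt1 and of Dnmt1 and Tet1. Tet2 (18.3 ± 3.47), Dnmt3a (13.4 ± 5.00) and Tdg (8.75 ± 1.23) came next with overlapping neighbours, and Tet3 was last at 1.42 ± 0.0114. At day 2 Dnmt3b led with 688 ± 40.2 CPM per kb, clear of Uhrf1 at 95.6 ± 2.12, and Tet2 was last at 1.74 ± 0.171. At day 3 Uhrf1 (88.0 ± 4.27) and Dnmt1 (72.2 ± 3.26) led without overlap, ahead of Dnmt3b at 38.0 ± 10.9. The per-kb values rest on the annotated length of 1 transcript per gene, for Dnmt3a the long one, so its place in this order depends on that choice.

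Markers of cell state moved with these steps. The summed level of 8 naive pluripotency genes (among them Zfp42, Esrrb and Klf4) was 3200 to 3590 CPM in controls at day 0 and 268 to 362 at day 2. That of 4 formative epiblast genes (Fgf5, Otx2, Pou3f1 and Sox3) was 89.7 to 147, 325 to 359 and 63.1 to 75.3 CPM at days 0, 2 and 3. That of 6 neural progenitor genes was 57.7 to 159, 198 to 253 and 249 to 303 CPM at the same days. The 9 feeder fibroblast genes summed to 93.9 to 229 CPM at day 0, 80.8 to 126 at day 2 and 136 to 201 at day 3 over both genotypes. None of them was at 0 in all samples. In bulk RNA, fewer cells of a type and less RNA per cell cannot be told apart, and the part of cell makeup in the changes above was not tested.

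The genotype comparison asked whether these enzymes are expressed at another level without Nup133. None of the 9 genes passed edgeR's test at day 0, where 0.854% of all genes did, at day 2 (1.6%) or at day 3 (5.2%). At an unadjusted p below 0.05 the counts were 1, 1 and 0, where 10.6%, 20.4% and 21.9% of all genes passed. DESeq2 called 0, 1 and 0, where it called 3.04%, 7.66% and 11.3% of all genes. The 1 gene concerned was Dnmt3l in each case. The median difference of the 9 genes was 0.13, -0.03 and 0.04 on the log2 scale, beside 0.01, 0.02 and 0.02 over all genes.

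Dnmt3l was the only one of the 9 whose knockout samples all lay above the controls at day 0 and at day 2, and the groups of the other 8 overlapped at each day. Over all genes tested the groups did not overlap for 17.8% at day 0, 21.7% at day 2 and 35.2% at day 3, so 1 of 9, 1 of 9 and 0 of 9 were no more than that share. At day 0 lines 14, 19 and 319 had 342, 371 and 672 CPM against 185, 196 and 324 in the controls, a difference of 0.95 ± 0.32 on the log2 scale (edgeR adjusted p = 0.227). At day 2 they had 105, 111 and 358 CPM against 62.9, 90.6 and 92.2, a difference of 1.01 ± 0.33 (adjusted p = 0.112). At day 3 they had 35.6, 13.6 and 54.4 CPM against 16.04, 22.81 and 23.79, so the groups overlapped, and the difference was 0.61 ± 0.33 (adjusted p = 0.293). The day 0 difference passed when that day was fitted alone (edgeR adjusted p = 0.0087), where 244 of 16313 genes did. Day 2 fitted alone called 0 of 16736 genes, so the day 2 difference did not pass there. It passed by DESeq2 over all days (adjusted p = 0.0386). Each line was also set against the controls of its own background. At day 0 lines 14, 19 and 319 stood 1.80, 1.94 and 2.07-fold above them, and at day 2 1.39, 1.46 and 3.88-fold. The day 2 difference thus rested in good part on line 319: without it the value was 0.54 (edgeR adjusted p = 0.263), and the day 0 value 0.79 (adjusted p = 0.276). In the day 2 library of line 19, transcripts under 2 kb had a median of 0.67 above HM1 on the log2 scale. Dnmt3l, at 1676 bases, differed by 0.55 there, and the part of transcript length in this was not tested. With that sample left out the day 2 genotype difference was 1.16 (edgeR adjusted p = 0.115). Between the controls, line 1A4 was itself 0.77 above HM1 on the log2 scale at day 0. Line 319 is labelled XX, and the X-linked genes Xist and Dusp9 stood at 28.9, 1010 and 503 CPM and at 199, 140 and 254 CPM there at days 0, 2 and 3, against at most 18.5 and 80.0 CPM in any other sample. The naive markers summed to 3520 to 4650 CPM in the knockouts at day 0, against 3200 to 3590. The formative markers summed to 609 to 646 CPM in the knockouts at day 2, against 325 to 359. The part of these in the Dnmt3l difference was not tested.

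The other 8 genes differed between genotypes by -0.33 to 0.38 on the log2 scale over the 3 days, with standard errors of 0.13 to 0.43. The smallest standard errors were those of Uhrf1, with differences of 0.08, 0.08 and 0.04 ± 0.13. The largest were those of Tet1, with 0.38 ± 0.42, -0.03 ± 0.43 and -0.07 ± 0.42. Single lines departed from the controls of their background, in part in opposite directions. Tet3 at day 0 was 2.01-fold higher in line 319 than in line 1A4 and 1.38-fold lower in line 14 than in HM1. Dnmt3b was 1.57, 1.30 and 1.35-fold lower in line 319 than in line 1A4 at days 0, 2 and 3, while line 14 lay within the range of the controls of its background at all 3 days. In line 19 Dnmt3b was 1.36-fold higher than in HM1 at day 0, 1.72-fold lower at day 2 and within the HM1 range at day 3.

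**Figure D4:**
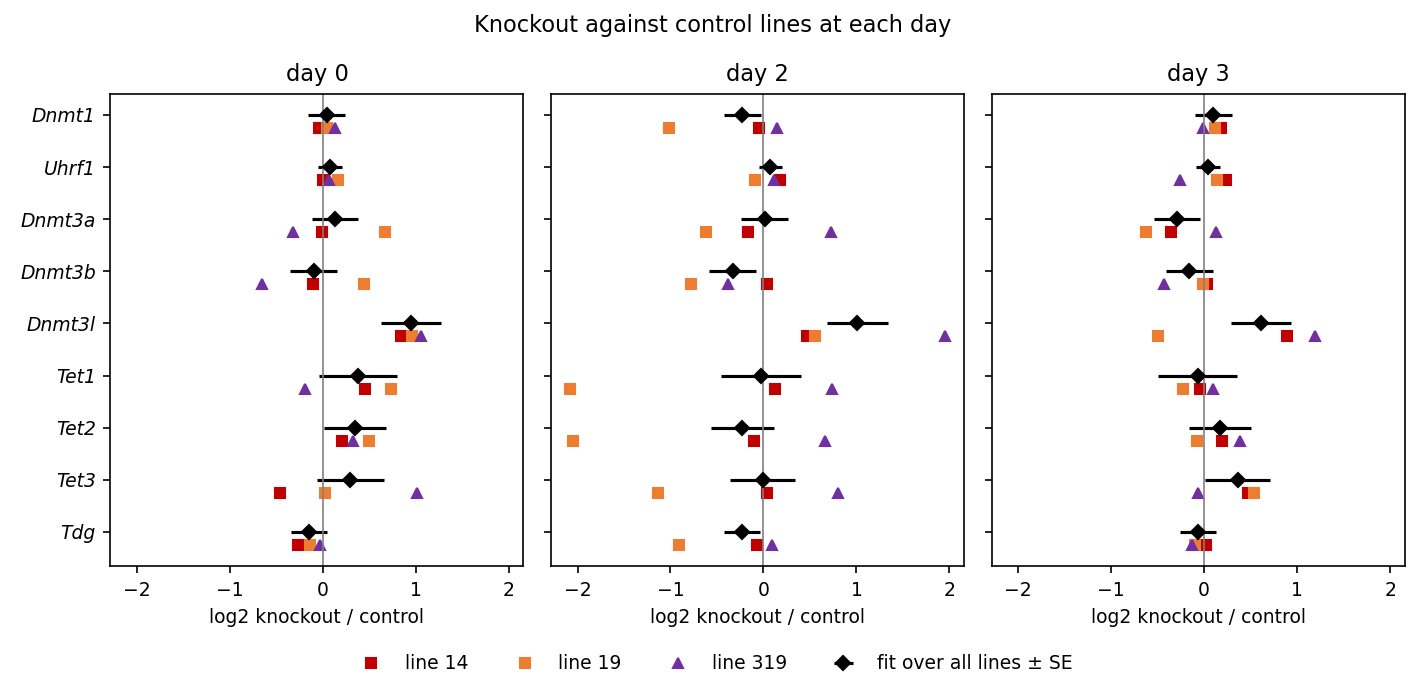
Log2 difference between knockout and control at each day: black diamonds give the fit over all lines ± SE, and coloured points set each knockout line against the controls of its own background (HM1 for lines 14 and 19, line 1A4 for line 319). Dnmt3l is the one gene with all 3 lines to the right of 0 at days 0 and 2, and line 19 lies near -2 for Tet1 and Tet2 at day 2.

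The steps themselves were compared between genotypes. None of the 9 genes differed in the step from day 0 to day 2 by edgeR's test, where 0.0219% of all genes did, or in that from day 2 to day 3 (0.0383%), none had an unadjusted p below 0.05 (7.16% and 8.9% of all genes did), and DESeq2 called 0 (0.416% and 0.64% of all genes). The differences ran from -0.57 to 0.06 in the first step and from -0.40 to 0.39 in the second (smallest adjusted p = 0.811 and 0.689). The largest, for Tet2 in the first step, was -0.57 ± 0.48. In the first step 8 of the 9 differences were negative, and this rested on line 19 at day 2. Without that sample 6 were positive and they ran from -0.15 to 0.21, and those of the second step from -0.55 to 0.04.

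Several knockout values rest on line 19 at day 2, whose level was below every other day 2 sample for 8 of the 9 genes, Dnmt3l excepted. Tet1 stood at 63.6 CPM there against 237 to 545 in the other 5 samples, Tet2 at 3.92 against 15.03 to 24.03, Tet3 at 23.6 against 37.8 to 65.9 and Tdg at 19.3 against 32.7 to 36.7. In this library the level of all genes against HM1 depended on transcript length: the median log2 difference was 0.67 for transcripts under 2 kb, -0.04 from 2 to 4 kb, -0.62 from 4 to 8 kb and -1.06 above 8 kb. In line 14 the same medians lay between -0.02 and 0.02. Tet1, at 14369 bases the longest of the 9, differed by -2.08 and Tet2 by -2.05, while Dnmt3l, at 1676 bases the shortest, differed by 0.55. The ratio of a 5' to a 3' fragment of Tet1 was 0.498 in this library and 0.689 to 0.888 in the other 17. Without it the day 2 genotype difference of Tet1 was 0.48 in place of -0.03 (edgeR adjusted p = 0.244), that of Tet2 0.20 in place of -0.23 (adjusted p = 0.584), and those of Dnmt1 and Tdg 0.05 and 0.02 in place of -0.23 and -0.23 (adjusted p = 0.807 and 0.952). The knockout fall of Tet1 from day 0 to day 2 was then 2.80-fold in place of 4.09-fold (adjusted p = 0.00011).

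**Figure D5:**
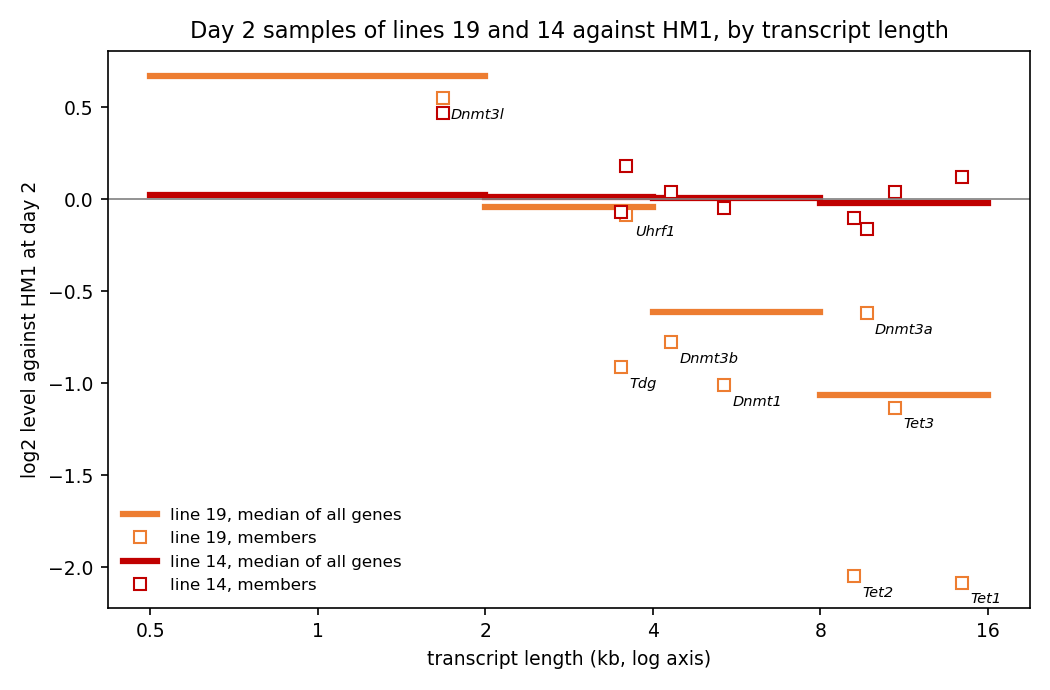
Log2 level of the day 2 samples of line 19 (orange) and line 14 (red) against the mean of the 2 HM1 replicates, by transcript length on a log axis: bars are medians of all genes in 4 length classes, the last class drawn to 16 kb, and open squares the 9 genes. The line 19 medians go from 0.67 in the shortest class to -1.06 in the longest, and those of line 14 lie between -0.02 and 0.02.

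The other genes of methylation and its removal were taken from 7 lists of 61 genes in all, of which 60 were tested; Mat2a, with 0 to 4 counts per sample, was not. From day 0 to day 2, 10 rose and 16 fell in the controls, and 9 rose and 18 fell in the knockouts. From day 2 to day 3 the counts were 7 and 12 in the controls and 9 and 13 in the knockouts. Over all genes 19.7% rose and 15.5% fell in the first control step, and 20.8% and 15.1% in the first knockout step. In the second step the shares were 12.5% and 8.92% in the controls and 17.6% and 16% in the knockouts. Of the 11 genes that regulate de novo methylation and imprints, 6 were lower and 2 higher in the first control step, where 15.5% and 19.7% of all genes were (median log2 -0.65, beside 0.01 over all genes). Prdm14, which represses de novo methyltransferases in naive cells, fell 21.9-fold (log2 -4.45 ± 0.54, edgeR adjusted p = 2.23e-05). Zfp57, which protects imprints, fell 3.39-fold (adjusted p = 0.000288), and Dppa3, which shields maternal methylation and restrains Uhrf1, fell 4.20-fold (adjusted p = 0.00107). In the knockouts the same list had 6 lower and 1 higher, and Prdm14 fell 25.1-fold (adjusted p = 1.74e-05), Zfp57 5.00-fold (adjusted p = 3.29e-05) and Dppa3 4.14-fold (adjusted p = 0.00141).

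In the list of Tet partners and cofactor supply, 3 of 7 were higher and 1 lower at day 2 in controls. Cxxc4, which encodes a CXXC protein that binds Tet2, was 3.61-fold higher (mean 0.318 to 1.18 CPM, adjusted p = 0.00163), and Slc23a1, a vitamin C transporter, 3.90-fold (adjusted p = 0.00734). At day 3 Slc23a1 was 3.18-fold lower again (adjusted p = 0.0268) and Cxxc4 higher still, by 2.92-fold (adjusted p = 0.00415). Among 9 maintenance partners, 1 rose and 2 fell in the first control step and 2 fell in the second, where Hells, a chromatin remodeller needed for maintenance, fell 2.04-fold (adjusted p = 0.0174). Among the suppliers of methyl donors, Shmt1, of one-carbon metabolism, fell 2.06-fold in the second control step (adjusted p = 9.96e-05). Among the 9 methyl-CpG readers, none fell and 2 rose in the second control step, and none fell and 4 rose in the knockouts. Over all genes 12.5% rose and 8.92% fell in that step in the controls, and 17.6% and 16% in the knockouts. Of the 14 genes of base excision repair and active demethylation, 2 rose and 1 fell in the second control step, and 2 and 6 in the second knockout step. Whether these list counts differ between genotypes was not tested, and none of the 60 genes passed the test of the difference itself. Among those that fell in the knockouts were Gadd45g, a relative of Gadd45b, by 3.16-fold (adjusted p = 0.00672), and Neil2, a glycosylase, by 2.71-fold (adjusted p = 0.000692). Gadd45b itself rose in that step, 2.99-fold in the knockouts (edgeR adjusted p = 0.00958) and 3.05-fold in the controls (adjusted p = 0.00632). From day 0 to day 2 it had fallen 9.78-fold in the knockouts (adjusted p = 3.53e-05) and 3.38-fold in the controls (adjusted p = 0.0023).

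Between genotypes 0 of the 60 pathway genes passed at day 0, 1 at day 2 and 3 at day 3, all lower in the knockouts, where 0.854%, 1.6% and 5.2% of all genes passed. As a share of 60 these counts were near that background. Gadd45b, a stress-induced adaptor proposed to act in demethylation, had a control mean of 4 ± 0.598 CPM at day 2 (SD, n = 3) and was 3.55-fold lower in the knockouts (log2 -1.83 ± 0.42, edgeR adjusted p = 0.0394). At day 3 it stood at 12.2 ± 2.71 and 3.36 ± 1.75 CPM (log2 -1.86 ± 0.38, adjusted p = 0.0137). At day 3 Cxxc5, a CXXC protein that interacts with Tet2, was 1.64-fold lower (47 ± 2.76 against 28.6 ± 7.04 CPM, adjusted p = 0.0219). Neil3, a glycosylase of base excision repair, was likewise 1.64-fold lower (22 ± 2.53 against 13.3 ± 0.570 CPM, adjusted p = 0.0416).

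The genes whose log2 CPM ran most like each of the 9 over the 18 samples are given as a description, since the samples share days and lines. Tet1 was followed most closely by Rest (Pearson r = 0.996) and Gfm1 (0.985), and Tet2 by Nid1 (0.992) and Myof (0.984). Rest, a repressor of neuronal genes, went from 491 through 235 to 128 CPM in the controls at days 0, 2 and 3. Dnmt3b was followed by Enpp2 and Crhbp (both 0.960), and Dnmt3a by Iqgap1 (0.941) and Rbbp8nl (0.928). Dnmt3l was followed by Rpl39l (0.969) and Slc20a1 (0.965), and Tet3 by Tmem164 and Soga1 (both 0.967). For the genes with small changes, Dnmt1 was followed by Crkl (0.972) and Ep300 (0.957), Uhrf1 by Dock5 (0.930) and the replication factor Mcm2 (0.927), and Tdg by Mbtd1 (0.884) and Xpo7 (0.872). The low values of line 19 at day 2 enter these correlations.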

How the data were processed

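Messenger RNA of 18 samples was sequenced as 72 libraries, 4 technical replicates per sample, from oligo(dT)-purified RNA and stranded TruSeq libraries per the labels. The authors deposited 1 raw read count for each Ensembl transcript and library. Per the submitters' processing notes bcl2fastq 2.17.1.14, STAR 2.4.0k, SAMtools, HTSeq and the build mm10 were used; annotation release and strand setting are not given in the sources used here. Transcripts sharing exons held nearly the same counts, which means that reads entered every transcript they touched, so counts were not added over transcripts. Each gene took its transcript of highest total, named from GENCODE M21 on GRCm38 (108214 of 110379 identifiers matched; the rest, 1.44% to 2.46% of counts, were left out). Technical replicates were summed.

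Tests used edgeR 4.0.16 under R 4.3.3 (TMM, filterByExpr, robust quasi-likelihood) in 1 fit of 6 groups plus a term for genetic background (11 residual degrees of freedom), with Benjamini-Hochberg adjustment over 18273 genes and a threshold of 0.05. The code was tested on simulated data. CPM are TMM-scaled, and counts have no molecular identifiers. Alternatives used DESeq2 1.42.0, limma 3.58.1, other filters, transcripts and samples. Samples of a line at different days are paired by the shared line, and the deviations of 16 of 18 such pairs correlated above 0.1. Near copies were found with blastn 2.17.0+ at 95% identity or more. All 9 genes are reported; of the pathway genes at most 6 called per comparison were named, those of largest change with a mean of at least 1 CPM, and for each gene the 2 most correlated genes. The genes and lists were chosen with earlier results of these data known.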

Additional observations from a re-analysis of the deposited data

How the results depend on the processing

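No alternative reversed the direction of a called change. The number of the 9 genes called stayed within 1.5 times that reported in most settings. At day 0 between genotypes 1 gene was called when the day was fitted alone (244 of 16313 over all genes), in place of 0. At day 2 it was 1 by DESeq2 (1400 of 18273) and 0 when the day was fitted alone (0 of 16736). From day 2 to day 3 in the controls 3 were called with HM1-derived lines only, in place of 5. Leaving out single replicates gave from 3 to 6. Over all genes that step had 3918 calls in the reported fit and 3489 with HM1-derived lines only. Without any 1 control replicate it had 1215 to 2391 calls, 3 of them among the 9 genes. Without line 19 it had 6362, 6 of them among the 9. Over 16 alternatives Tet1 changed in that step by -1.45 to -1.19 and Tet2 by 1.18 to 1.35 on the log2 scale. With each line or HM1 replicate as a block (limma-voom, correlation 0.00947) 6, 5, 6 and 4 genes were called in the control steps and then the knockout steps. With fixed terms for them it was 6, 4, 6 and 4. Tet1 from day 2 to day 3 was the one call removed, in the knockouts by limma-voom and in both genotypes by the fixed terms. HM1-derived lines alone left Tet1 and Tet2 uncalled in the second control step (adjusted p = 0.133 and 0.0831). Over the single genes, 1232 alternative values stayed on the same side of the threshold, 27 lost a call, 11 gained one and 26 uncalled values changed sign by more than 1 SE. Leaving out TMM shifts all genes by -0.14 on the log2 scale in the day 2 genotype comparison. Mean CPM without TMM scaling moved by more than 1 SD in 16 of 54 gene and group means. The lowest gene count behind a value was 52, for Tet2 in line 19 at day 2, and every other gene count of the 9 was at least 256. Counts behind the comparison of forms were lower. In line 19 at day 2 the upstream exons of Dnmt3a held 24 counts, and the 5' and 3' fragments of Tet1 62 and 99. The cause was not tested.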
